A study of Mus musculus with 9 samples.

Results

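Macrophages and the osteoclasts that form from them carry families of paired receptors, in which close relatives with similar extracellular parts send opposite signals. The 10 genes described here are the Fc gamma receptors Fcgr1, Fcgr2b, Fcgr3 and Fcgr4, the signal regulatory proteins Sirpa, Sirpb1a, Sirpb1b and Sirpb1c, and the leukocyte immunoglobulin-like receptors Lilrb4a and Pirb. They were taken by gene symbol from a deposited table of 56691 genes, and each symbol was found once. Of the 10 genes, 7 reached an FPKM of 1 in 3 or more libraries and were tested together with the other genes that met this condition, 11995 in all. The 3 Sirpb1 genes did not meet it and are given by their counts and by a fit without the filter. FPKM is the number of reads on a gene divided by its exonic length and by the library's total. Levels of different genes on this scale depend on the exonic length used, which was not checked against the transcripts expressed in these cells.

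The libraries came from RAW264.7, an established line of mouse macrophages. The line turns into osteoclast-like cells under RANKL, the cytokine that drives osteoclast differentiation. The control group was left untreated, the RANKL group received RANKL at 50 ng/mL, and the RANKL + UD group received RANKL together with uridine (UD), whose dose for these libraries is not named in the sources used here. Each group had 3 libraries, and RNA was collected on day 3. A single cell line was used, so the libraries do not stand for separate animals, and nothing beyond the submitters' word on biological replicates tells whether they were separate cultures, so the p-values measure the spread between these libraries.

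Activating Fc gamma receptors bind the constant part of IgG and signal through Fcer1g, an adaptor that carries an immunoreceptor tyrosine-based activation motif (ITAM). Phosphorylated ITAMs recruit the kinase Syk, and ITAM signals act beside RANKL as costimulation in osteoclast differentiation. Inhibitory members carry immunoreceptor tyrosine-based inhibitory motifs (ITIMs) in their own cytoplasmic tails, which recruit phosphatases such as SHP-1 (Ptpn6), SHP-2 (Ptpn11) and SHIP-1 (Inpp5d). Fcgr2b is the inhibitory Fc gamma receptor, Sirpa is the inhibitory receptor for CD47, and Pirb and Lilrb4a are inhibitory receptors with MHC class I and integrin alpha v beta 3 among their reported ligands. The Sirpb1 receptors lack such a tail and pair with the ITAM adaptor Tyrobp (DAP12).

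The inhibitory tails can be read from the coding sequences. The last 25% of the longest coding transcript of each gene in the GENCODE M21 annotation was searched for the ITIM pattern, which is isoleucine, valine, leucine or serine, any residue, tyrosine, any 2 residues, and valine, leucine or isoleucine. The stretches of 6 codons that matched in the 4 inhibitory receptors are shown because ITIMs are what these receptors are known to signal through, with the tyrosine codon in capitals.
Fcgr2b: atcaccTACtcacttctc
Sirpa, match 1: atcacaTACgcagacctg
Sirpa, match 2: ctcaccTATgctgacctg
Sirpa, match 3: tcagagTATgctagtgtc
Lilrb4a, match 1: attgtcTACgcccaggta
Lilrb4a, match 2: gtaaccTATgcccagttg
Pirb, match 1: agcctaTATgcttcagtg
Pirb, match 2: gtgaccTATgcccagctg
Pirb, match 3: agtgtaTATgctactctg
The stretch in Fcgr2b covers codons 317 to 322 of 340. Fcgr3 and the 3 Sirpb1 genes held no match. The activating Fcgr1 and Fcgr4 held 1 match each, as many as Fcgr2b, so the count of matches does not separate Fcgr2b from them. All of these are matches of letters, and neither function nor phosphorylation was measured. Among 21569 protein-coding genes searched in the same way, 19.2% held at least 1 match and 3.73% held at least 2, so a single match is common and the 3 matches each in Sirpa and Pirb and the 2 in Lilrb4a are less so. The coding sequence of Fcgr2b was 86.7% identical to that of the activating Fcgr3 over their aligned bases, and that of Sirpa was 70.4% to 71.5% identical to those of the Sirpb1 genes. The 3 Sirpb1 genes were 97.4% to 98.3% identical to each other.

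The 250 bases before the transcription start were taken from RefSeq (GRCm38.p6) for 8 of the 10 genes, all but Sirpa and Lilrb4a. They were searched on both strands for the PU.1 core (GAGGAA), the interferon-gamma activated site (TTCNNNGAA), the AP-1 site (TGANTCA), the NFAT core (GGAAA) and the ISRE (interferon-stimulated response element, a pair of GAAA repeats with 2 bases between them, which can overlap the NFAT core). PU.1 is the lineage factor of macrophages and osteoclasts. The promoters of the activating Fc gamma receptors are shown because these genes share a function and had log2 fold changes under RANKL as far apart as -3.90 and -0.27. Capitals mark the PU.1 core and, in Fcgr1 alone of those shown, the interferon-gamma activated site.
Fcgr1, chr3:96293970-96294219, minus strand: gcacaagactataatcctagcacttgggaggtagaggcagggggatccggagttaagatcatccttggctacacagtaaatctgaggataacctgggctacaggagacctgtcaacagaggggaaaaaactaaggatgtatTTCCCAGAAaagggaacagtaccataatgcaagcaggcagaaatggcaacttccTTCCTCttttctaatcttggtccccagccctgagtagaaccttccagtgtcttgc
Fcgr3, chr1:171059404-171059653, minus strand: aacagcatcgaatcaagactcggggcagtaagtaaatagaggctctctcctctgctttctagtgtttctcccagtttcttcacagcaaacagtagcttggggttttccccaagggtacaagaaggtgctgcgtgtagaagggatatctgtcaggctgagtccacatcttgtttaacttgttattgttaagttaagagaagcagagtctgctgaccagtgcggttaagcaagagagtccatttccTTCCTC
Fcgr4, chr1:171018676-171018925, plus strand: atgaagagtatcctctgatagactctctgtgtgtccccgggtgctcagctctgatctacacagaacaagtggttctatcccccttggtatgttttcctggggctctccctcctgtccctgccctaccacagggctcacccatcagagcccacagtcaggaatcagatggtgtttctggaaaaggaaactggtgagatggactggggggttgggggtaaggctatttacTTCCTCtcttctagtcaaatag
The PU.1 core began 55 bases before the start in Fcgr1, 6 in Fcgr3 and 22 in Fcgr4, and Pirb held 3 copies, at 185, 120 and 87 bases. A second RefSeq start of Fcgr3, not shown, had the core at 15 bases. Fcgr2b held neither a PU.1 core nor an interferon-gamma activated site in this window, and the Sirpb1 genes held no PU.1 core. The PU.1 core was present in 23.3% of the 32851 promoters searched. The interferon-gamma activated site of Fcgr1 began 109 bases before the start and overlaps a match of the NFAT core. That site was also present in Sirpb1a, Sirpb1b and Sirpb1c and in 7.02% of all promoters, while the ISRE, present in Fcgr4, Sirpb1a and Sirpb1b, was found in 2.98%. The AP-1 site was in none of the 8 and in 6.75% of all promoters, and the NFAT core was in 6 of the 8 and in 55.6%. These are matches of letters, and no binding was measured.

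In the deposited table, Fcgr2b, Fcgr4 and Fcgr3 lie close together on chromosome 1, from 170786186 to 170804116 (minus strand), 170846489 to 170857330 (plus strand) and 170878743 to 170892504 (minus strand). Fcgr1 lies on chromosome 3 from 96190225 to 96201285 (minus strand), and Sirpb1a, Sirpb1b and Sirpb1c on the same chromosome from 15436713 to 15491580, 15560811 to 15640125 and 15849309 to 15902692 (all minus strand). Sirpa lies on chromosome 2 from 129434755 to 129474148 (plus strand), Lilrb4a on chromosome 10 from 51367052 to 51372707 (plus strand) and Pirb on chromosome 7 from 3714408 to 3723390 (minus strand). The submitters' processing notes name mm10. However, the table's coordinates equal those of the GRCm38 annotation for none of these 10 genes and for 1435 of 52073 shared genes, so the build of these positions is not given in the sources used here and differs from that of the promoters above. Values are sums over whole genes, all exons and untranslated parts included.

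The 9 libraries held 15951800 to 19746862 counts. Within groups, the 9 pairs of libraries all differed beyond sampling noise (chi-square of 2.98 to 9.54 per degree of freedom), so no libraries were merged. Macrophage and osteoclast markers were read in every library. Of 8 macrophage markers 7 passed the filter, and their summed FPKM was 9393 to 9983 in control, 2527 to 2770 in RANKL and 2204 to 2337 in RANKL + UD. Of 8 osteoclast markers 7 passed, with sums of 46.7 to 49.9, 2639 to 2843 and 1665 to 1702. Lyz2 alone made up most of the macrophage sum, with 7818.18 to 8299.17 FPKM in control and 1357.45 to 1520.82 in RANKL, while Cd68 went the other way, from 523.82 to 599.26 in control to 757.59 to 829.73 in RANKL. None of these markers was at 0 in all libraries, but the osteoclast marker Calcr reached at most 0.49 FPKM and was at 0 in every control library. The summed FPKM of T cell, B cell, neutrophil, mast cell, fibroblast and erythroid markers was at most 0.29 in any library, and that of dendritic cell markers at most 1.44. The RNA came from whole cultures, so fewer cells expressing a gene and less RNA per cell cannot be told apart, and the part of the shift from macrophage to osteoclast markers in the results below was not tested.

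Of the 7 tested receptor genes, 4 were lower in RANKL than in control and none was higher. Fcgr1, Fcgr3, Lilrb4a and Fcgr2b fell, in that order of size, while Fcgr4, Sirpa and Pirb did not pass the test (quasi-likelihood test of edgeR, Benjamini-Hochberg adjusted over all 11995 genes, adjusted p under 0.05). Over all tested genes 30.2% were called lower and 27.3% higher in this comparison. With RANKL + UD against RANKL, 5 of the 7 were lower and none higher, namely Pirb, Fcgr3, Fcgr2b, Lilrb4a and Sirpa, where 20.2% of all tested genes were called lower and 18.6% higher. With RANKL + UD against control, 6 of the 7 were lower and none higher, with Fcgr4 the exception, where 27.3% of all genes were called lower and 26.7% higher. The median log2 fold change of the 7 genes was -0.82, -0.75 and -1.66 in these 3 comparisons, beside -0.03, 0.00 and -0.00 for all tested genes. The comparisons share groups and are not independent of each other. No receptor gene was called higher in any comparison with DESeq2 or limma. On the FPKM scale, all 3 RANKL libraries lay below all 3 control libraries for 6 of the 7 tested genes, as for 38.9% of all tested genes. The 3 RANKL + UD libraries lay below the RANKL libraries for 5 of the 7 (17.7% of all) and below the control libraries for 6 of the 7 (30.5% of all). FPKM is scaled by library totals, and this scaling shifts the median log2 fold change of all genes to -0.11 for RANKL against control and to 0.09 for RANKL + UD against RANKL.

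**Figure D1:**
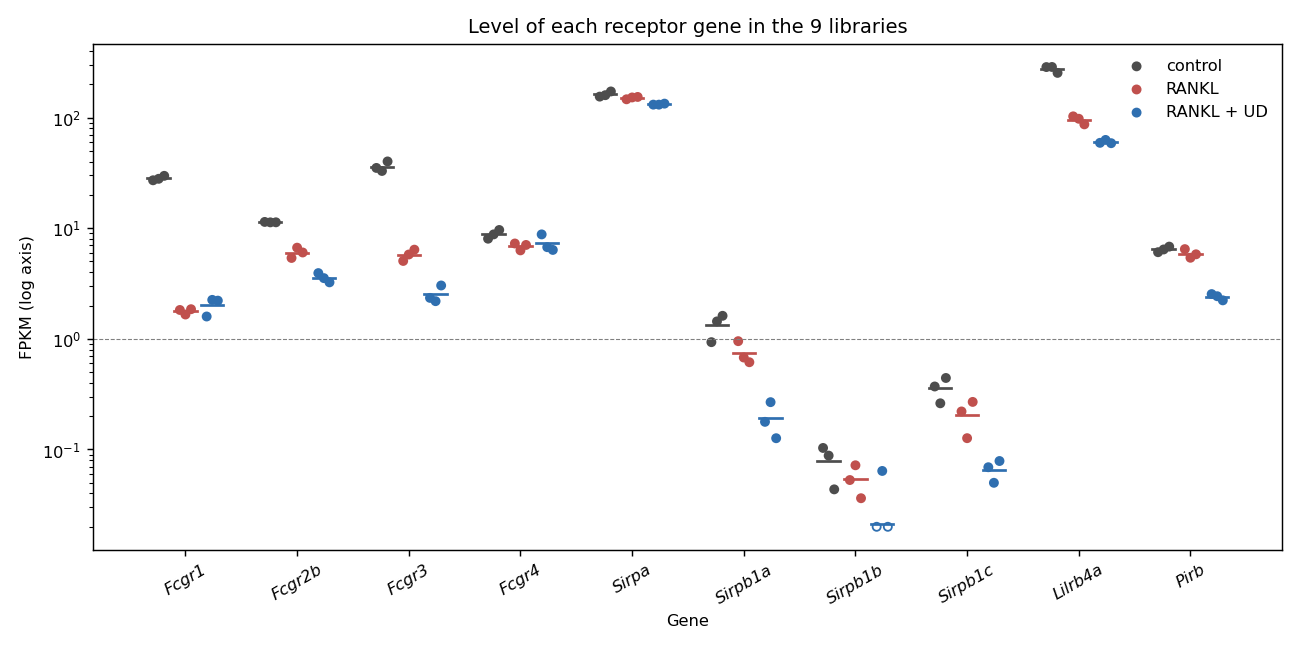
FPKM of the 10 receptor genes (log axis) in the 3 control, 3 RANKL and 3 RANKL + UD libraries, with points for libraries and bars for group means; the dashed line marks an FPKM of 1, and open points at the foot stand for libraries with 0 reads. Fcgr1 drops from 27.1 or more in control to 2.25 or less in the other libraries, Sirpa stays between 130.84 and 172.19 throughout, and the 3 Sirpb1 genes lie at the bottom.

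Fcgr1 encodes the high-affinity receptor for IgG. Its FPKM was 27.1, 27.95 and 29.73 in the control libraries, 1.82, 1.66 and 1.85 in the RANKL libraries and 1.59, 2.25 and 2.21 in the RANKL + UD libraries. Every control library lay above every treated library by a wide margin, and the 2 treated groups overlapped. Under RANKL Fcgr1 fell by 3.90 on the log2 scale (SE 0.111, adjusted p = 1.86e-17, edgeR), or 14.9-fold, and only 50 of the 11995 tested genes had a lower log2 fold change. Adding UD left a log2 fold change of 0.09 against RANKL (95% interval -0.21 to 0.38, adjusted p = 0.679, edgeR). Against control, RANKL + UD had a log2 fold change of -3.82 (adjusted p = 3.37e-17, edgeR). The counts behind the low levels were 81 to 99 per library.

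Fcgr3 encodes the low-affinity activating receptor that binds IgG in immune complexes. Its FPKM was 35.05, 32.9 and 40.12 in control, 5.06, 5.78 and 6.4 in RANKL, and 2.34, 2.19 and 3.03 in RANKL + UD. The 3 groups did not overlap, and each step went down. Fcgr3 fell by 2.56 on the log2 scale under RANKL (SE 0.112, adjusted p = 2.83e-14, edgeR), and 169 tested genes had a lower value. It fell by a further 1.27 with UD (SE 0.143, adjusted p = 5.00e-07, edgeR), and 165 tested genes had a lower value there. Against control, RANKL + UD was 14.2-fold lower, a log2 fold change of -3.83 (adjusted p = 2.89e-16, edgeR).

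Fcgr4 encodes the third activating receptor, which binds IgG2a and IgG2b with intermediate affinity. Its FPKM was 8.04, 8.79 and 9.63 in control, 7.27, 6.3 and 7.06 in RANKL, and 8.79, 6.74 and 6.36 in RANKL + UD. The RANKL libraries lay below the control libraries on this scale, and the RANKL + UD libraries overlapped both groups. Under RANKL the log2 fold change was -0.27 (95% interval -0.57 to 0.03, adjusted p = 0.118, edgeR). Between RANKL + UD and RANKL it was 0.00 (95% interval -0.30 to 0.31, adjusted p = 0.983, edgeR). The interval under RANKL lies above the log2 fold changes of Fcgr1 and Fcgr3. The call under RANKL depended on the scaling, since Fcgr4 was lower with an adjusted p of 0.0384 when libraries were scaled by their totals alone. Without RANKL + UD replicate 1, the log2 fold change of RANKL + UD against control was -0.43 with an adjusted p of 0.0246, in place of -0.26 and 0.131 with all libraries (edgeR).

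Fcgr2b encodes the only inhibitory Fc gamma receptor, whose ITIM stretch is printed above. Its FPKM was 11.39, 11.29 and 11.3 in control, 5.38, 6.67 and 6.03 in RANKL, and 3.93, 3.54 and 3.24 in RANKL + UD. The groups did not overlap, and the control libraries were nearly equal. Fcgr2b fell by 0.82 on the log2 scale under RANKL (SE 0.0831, adjusted p = 2.74e-08, edgeR) and by 0.84 more with UD (SE 0.0898, adjusted p = 2.49e-07, edgeR). Over both steps the log2 fold change was -1.66 (adjusted p = 7.96e-13, edgeR).

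The composition of the Fc gamma receptor mRNA differed between the groups. The summed FPKM of the 4 genes was 84.4 ± 5.51 (SD, n = 3) in control, 20.4 ± 0.902 in RANKL and 15.4 ± 1.08 in RANKL + UD. Fcgr3 held 42.6% ± 1.79 of it in control, 28.1% ± 2.06 in RANKL and 16.5% ± 3.46 in RANKL + UD. Fcgr1 held 33.5% ± 0.924, 8.71% ± 0.603 and 13.3% ± 3.21. Fcgr4, the smallest share in control at 10.4% ± 0.526, had the largest mean share in the other groups, with 33.7% ± 3.23 in RANKL and 47.1% ± 5.11 in RANKL + UD. In RANKL replicate 2, however, Fcgr2b held more, 32.7% against 30.9% for Fcgr4. Fcgr2b held 13.5% ± 0.870, 29.5% ± 2.77 and 23.1% ± 1.17. These shares depend on the exonic lengths used, 2589 bases for Fcgr1, 5790 for Fcgr2b, 1736 for Fcgr3 and 1256 for Fcgr4. By counts, Fcgr2b stood above Fcgr4 in every library, with 447, 334 and 324 against 217, 138 and 138 in RANKL + UD.

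**Figure D2:**
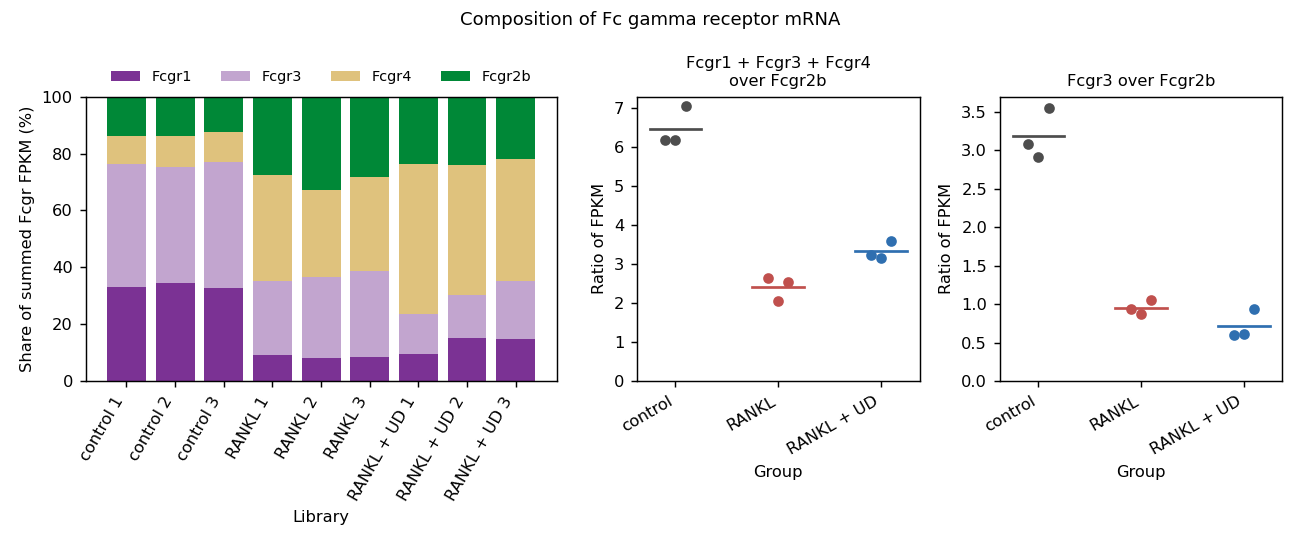
Left, the share of each gene in the summed FPKM of the 4 Fc gamma receptor genes (%) in each library; middle, the ratio of Fcgr1, Fcgr3 and Fcgr4 summed to Fcgr2b; right, the ratio of Fcgr3 to Fcgr2b, with points for libraries and bars for group means. The middle ratio averages 6.45 in control, 2.41 in RANKL and 3.33 in RANKL + UD, and Fcgr4 takes the largest share in every RANKL + UD library.

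The ratio of activating to inhibitory Fc gamma receptor mRNA, the FPKM of Fcgr1, Fcgr3 and Fcgr4 summed over that of Fcgr2b, was computed in each library. It was 6.16, 6.17 and 7.03 in control, 2.63, 2.06 and 2.54 in RANKL, and 3.24, 3.16 and 3.58 in RANKL + UD. The groups did not overlap, with control highest, RANKL + UD between and RANKL lowest. The activating sum averaged 73.1 FPKM in control, 14.4 in RANKL and 11.8 in RANKL + UD, and Fcgr2b averaged 11.3, 6.03 and 3.57. Both parts of the ratio were thus lower in RANKL + UD than in RANKL. The level of the ratio also depends on the exonic lengths used. The log2 difference was -1.43 for RANKL against control, 0.47 for RANKL + UD against RANKL and -0.95 for RANKL + UD against control. Each had p = 0.1 in a two-sided exact permutation test and 0.1 after adjustment over the 6 ratio tests, the smallest p that 3 against 3 libraries allow. With Fcgr3 alone over Fcgr2b, the difference between RANKL + UD and RANKL turned to -0.44 (exact permutation test, p = 0.2), so the direction depends on whether Fcgr1 and Fcgr4 are counted.

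Sirpa encodes the receptor through which macrophages read CD47 on other cells. It had the second highest level of the 10 genes in control and the highest in the other groups. Its FPKM was 154.64, 159.34 and 172.19 in control, 146.27, 151.98 and 153.59 in RANKL, and 130.87, 130.84 and 133.64 in RANKL + UD. The groups did not overlap on this scale, but they stood close to each other. After TMM scaling, which corrects for differences in composition between libraries, the log2 fold change under RANKL was -0.02 (95% interval -0.12 to 0.08, adjusted p = 0.761, edgeR). With UD Sirpa fell by 0.28 on the log2 scale against RANKL (SE 0.0470, adjusted p = 7.31e-05, edgeR), a small step that 2323 of the tested genes exceeded in the same direction. Against control the log2 fold change of RANKL + UD was -0.30 (adjusted p = 1.65e-05, edgeR).

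Sirpb1a, Sirpb1b and Sirpb1c encode the activating relatives of Sirpa and were near the limit of detection. Sirpb1a had 36, 65 and 59 counts in control, 43, 30 and 27 in RANKL, and 8, 10 and 5 in RANKL + UD. The RANKL + UD libraries lay below all others, while the control and RANKL libraries overlapped. Sirpb1c had 23, 19 and 26 counts in control, 16, 9 and 19 in RANKL, and 5, 3 and 5 in RANKL + UD, again with the RANKL + UD libraries lowest. Sirpb1b had 5, 5 and 2 counts in control, 3, 4 and 2 in RANKL and 0, 3 and 0 in RANKL + UD, too few for a fold change. In a fit of all 26736 genes with a count, where the spread is pooled over all genes, the log2 fold change of RANKL + UD against RANKL was -2.05 for Sirpb1a (SE 0.402, adjusted p = 5.30e-06, edgeR). That of Sirpb1c was -1.69 (SE 0.586, adjusted p = 0.0254, edgeR), and this fit called 9.18% of genes lower. Against control, RANKL + UD gave -2.77 for Sirpb1a (adjusted p = 7.11e-12, edgeR) and -2.38 for Sirpb1c (adjusted p = 0.000159, edgeR), where 13.4% of genes were called lower. Under RANKL neither passed, with -0.72 for Sirpb1a (adjusted p = 0.0681) and -0.69 for Sirpb1c (adjusted p = 0.333), where 14.8% of genes were called lower. The calls depended on single libraries. Without control replicate 1 or without RANKL replicate 1, Sirpb1a passed under RANKL with adjusted p of 0.0270 and 0.0343. Sirpb1c lost its call between RANKL + UD and RANKL without RANKL replicate 1 or 3 or RANKL + UD replicate 1 or 2, with adjusted p of 0.0614, 0.130, 0.0584 and 0.0886.

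The 3 Sirpb1 genes can exchange reads. Of the windows of 150 bases, the read length in the labels, 12.8% in Sirpb1a transcripts, 28.1% in Sirpb1b and 20.6% in Sirpb1c also occur in transcripts of another gene, while Sirpa shares none. How reads with several positions were counted is not given in the sources used here, so the split among the 3 is uncertain. Their summed FPKM does not depend on it to the same degree and was 1.76 ± 0.347 (SD, n = 3) in control, 1.01 ± 0.191 in RANKL and 0.278 ± 0.0922 in RANKL + UD. The ratio of this sum to Sirpa was 0.0108 ± 0.00158 in control, 0.00671 ± 0.00145 in RANKL and 0.00211 ± 0.000718 in RANKL + UD, and the groups did not overlap. The log2 difference was -0.70 for RANKL against control, -1.70 for RANKL + UD against RANKL and -2.40 for RANKL + UD against control. Each had p = 0.1 in the exact permutation test and 0.1 after adjustment, again the smallest possible. With Sirpb1a alone over Sirpa, control and RANKL overlapped, since RANKL replicate 1 (0.00651) lay above control replicate 1 (0.00603). The RANKL + UD libraries stayed lowest.

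Lilrb4a, an inhibitory receptor of myeloid and mast cells, had the highest level of the 10 genes in control. Its FPKM was 286.04, 286.57 and 253.43 in control, 102.54, 97.53 and 86.82 in RANKL, and 59.1, 62.77 and 58.66 in RANKL + UD. The groups did not overlap, and each step went down. Lilrb4a fell by 1.44 on the log2 scale under RANKL (SE 0.0604, adjusted p = 1.39e-14, edgeR) and by a further 0.75 with UD (SE 0.0604, adjusted p = 4.27e-09, edgeR). Over both steps it was 4.57-fold lower, a log2 fold change of -2.19. Of 6606 windows of 150 bases in Lilrb4a transcripts, 1982 also occur in another gene, 1934 of them in Gm49339, an overlapping gene on the same strand with at most 9 counts in a library, and 246 in Lilrb4b (Lilr4b in that annotation).

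Lilrb4b, the neighbouring paralogue, is not among the 10 genes and was named by the rule for the largest changes in its list. Its FPKM was 166 ± 4.08 (SD, n = 3) in control, 54.2 ± 2.48 in RANKL and 25.05 ± 1.75 in RANKL + UD. Lilrb4b had log2 fold changes of -1.53 under RANKL, -1.20 between RANKL + UD and RANKL, and -2.73 between RANKL + UD and control (adjusted p = 7.27e-16, 1.36e-12 and 2.24e-19, edgeR).

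Pirb, the mouse receptor for MHC class I among the inhibitory LILR genes, showed another order. Its FPKM was 6.07, 6.42 and 6.81 in control, 6.47, 5.4 and 5.81 in RANKL, and 2.54, 2.43 and 2.23 in RANKL + UD. Control and RANKL libraries overlapped, and all RANKL + UD libraries lay below them. Under RANKL its log2 fold change was -0.04 (95% interval -0.23 to 0.16, adjusted p = 0.747, edgeR). With UD Pirb fell by 1.38 on the log2 scale against RANKL (SE 0.102, adjusted p = 1.55e-09, edgeR), the largest fall among the 7 tested genes in this comparison, and 135 of all tested genes had a lower value. Against control the log2 fold change of RANKL + UD was -1.42 (adjusted p = 1.47e-10, edgeR). Of the 150-base windows in Pirb transcripts, 13.4% also occur in other genes. Gm14548 shared 457 of them, Pira2 386, Gm15925 195, Gm15922 159 and Lilra6 137. The Pira1, Pira2, Pira12, Pira13 and Lilra6 genes all stayed below the filter. The levels of Gm14548, Gm15925 and Gm15922 were not examined, and an exchange of reads with Pirb was not tested.

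**Figure D3:**
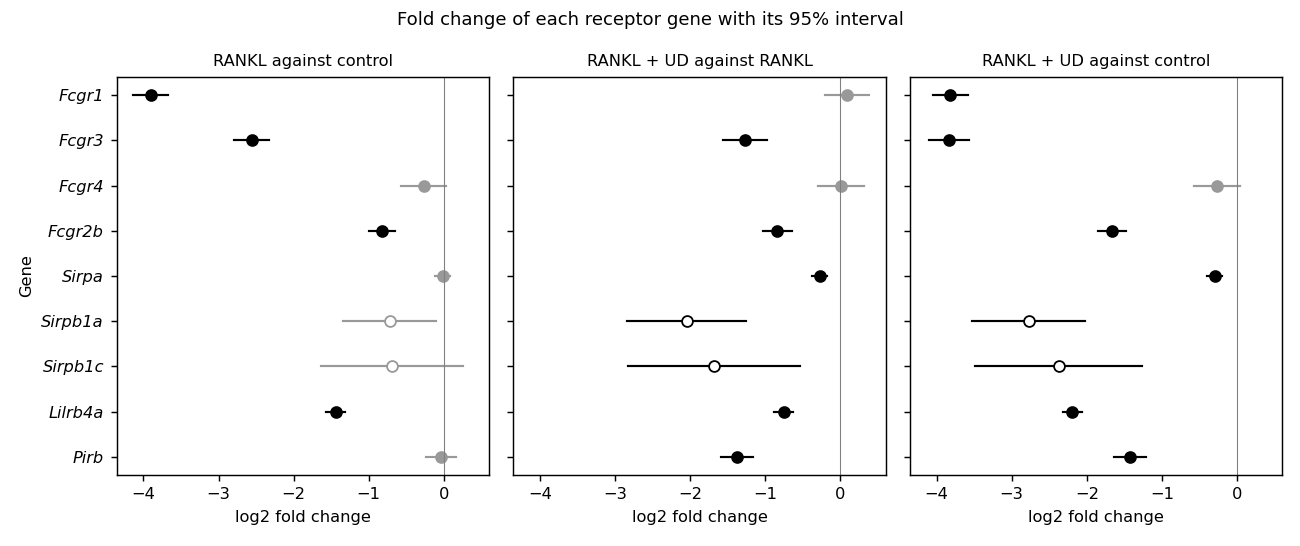
Log2 fold change with its 95% interval for 9 receptor genes in the 3 comparisons (edgeR); filled points are from the fit of 11995 genes and open points from the fit without filter, black where the adjusted p is under 0.05 and grey otherwise. Fcgr1 sits at -3.90 under RANKL and at 0.09 between RANKL + UD and RANKL, while Pirb sits at -0.04 and then -1.38.

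Summed over the 10 genes, the FPKM was 530 ± 4.87 (SD, n = 3) in control, 274 ± 4.42 in RANKL and 210.0 ± 0.950 in RANKL + UD. Lilrb4a made up 51.9% ± 3.20 of the sum in control, 34.9% ± 2.43 in RANKL and 28.6% ± 0.945 in RANKL + UD. Sirpa made up 30.6% ± 1.92, 55.1% ± 2.11 and 62.7% ± 0.923. Lilrb4a thus stood above Sirpa in every control library and below it in every other library.

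The list of signalling adaptors held Fcer1g, Tyrobp and Hcst, the last of which (DAP10) serves other receptors of immune cells. Of these 3, 2 were lower and 0 higher under RANKL, 1 lower and 0 higher between RANKL + UD and RANKL, and 2 lower and 0 higher between RANKL + UD and control. Fcer1g, the common chain of the Fc receptors, had an FPKM of 74.6 ± 5.23 (SD, n = 3) in control, 47.4 ± 3.02 in RANKL and 46.3 ± 3.47 in RANKL + UD. Fcer1g had a log2 fold change of -0.57 under RANKL (adjusted p = 1.65e-06, edgeR), -0.12 between RANKL + UD and RANKL (adjusted p = 0.255, edgeR) and -0.69 against control. Tyrobp was at 271 ± 9.33, 187 ± 18.6 and 164 ± 7.58, with called log2 fold changes of -0.45 under RANKL, -0.28 between RANKL + UD and RANKL, and -0.73 against control. The call of Tyrobp between RANKL + UD and RANKL was lost with limma on log2(FPKM + 1) and on log2(FPKM + 0.1), where 0 adaptors were lower. The median of the list was -0.45, -0.12 and -0.69 in the 3 comparisons, beside the medians of all genes given above. The shares of all tested genes called lower were 30.2%, 20.2% and 27.3%, and those called higher 27.3%, 18.6% and 26.7%.

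The 11 ITAM kinases and linkers moved in both directions under RANKL, with 5 higher and 5 lower, where 27.3% of all tested genes were called higher and 30.2% lower. Syk, the kinase that docks on phosphorylated ITAMs, rose by 0.97 on the log2 scale, from an FPKM of 9.25 ± 0.382 (SD, n = 3) to 17.0 ± 0.113. The Src family kinase Fgr fell by 1.41 on the log2 scale, from 28.9 ± 0.509 to 10.3 ± 0.672 FPKM. Between RANKL + UD and RANKL, 8 were lower and 0 higher, among them Fgr with -0.56 and the linker Lat2 with -0.50. With libraries scaled by their totals alone, these counts were 5 lower and 1 higher, and of all genes 1709 were lower and 3348 higher on that scaling. Either limma setting also gave 5 lower and 1 higher. The count lower was 7 without the filter, and without RANKL replicate 2 or 3 or RANKL + UD replicate 1 or 2. Against control, RANKL + UD had 5 higher and 6 lower, with Fgr at -1.97 and the phospholipase Plcg2 at -0.85 among the lower. The medians of the list were -0.06, -0.21 and -0.38. Of all tested genes, 20.2% were called lower and 18.6% higher between RANKL + UD and RANKL, and 27.3% and 26.7% against control.

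Of the 8 ITIM phosphatases and docking proteins, 6 were lower and 2 higher under RANKL. The count lower was 5 with RLE size factors, DESeq2, other filters or only the 6 libraries, and without control replicate 1 or 2, RANKL replicate 1 or 2, or RANKL + UD replicate 2 or 3. Dok2, at -0.13, passed with an adjusted p of 0.0494 (edgeR). Fyb, an adaptor that binds Skap2 in the Sirpa complex, fell by 1.25 on the log2 scale, Inpp5d, the phosphatase that Fcgr2b recruits, fell by 0.59, and the docking protein Dok1 rose by 0.86. Ptpn6, the main phosphatase of Sirpa and Pirb, was at 160 ± 9.54 FPKM (SD, n = 3) in control, 110 ± 5.01 in RANKL and 138 ± 6.43 in RANKL + UD. Between RANKL + UD and RANKL 4 were lower and 2 higher, with Dok1 at -0.72, Dok2 at -0.61 and Fyb at -0.42. The 2 that rose were the phosphatases Ptpn6 at 0.24 and Ptpn11 at 0.18 (adjusted p = 0.00125 and 0.00669, edgeR), named here after their values were seen. Inpp5d was at 0.07 (adjusted p = 0.401, edgeR). With library totals alone 3 were lower and 3 higher. The count lower was also 3 without the filter, with either limma setting, and without RANKL replicate 1 or 3 or RANKL + UD replicate 2 or 3. Against control 5 were lower and 0 higher in RANKL + UD, led by Fyb with -1.66, Dok2 with -0.74 and Inppl1 with -0.62. With either limma setting, or without control replicate 2 or RANKL replicate 3, 6 were lower, and without the filter 1 was higher. The medians were -0.37, -0.09 and -0.37. Among all tested genes 30.2%, 20.2% and 27.3% were called lower in the 3 comparisons, and 27.3%, 18.6% and 26.7% higher.

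Of the 7 genes for reported ligands, 4 were lower and 2 higher under RANKL. Both that rose were the subunits of the integrin that binds Lilrb4a, Itgb3 with 3.20 and Itgav with 2.27 on the log2 scale. Itgb3 was near the floor, with a mean FPKM of 0.166 in control (14 to 19 counts per library), 1.44 in RANKL and 0.726 in RANKL + UD. It thus passed the filter only through the RANKL libraries, where it was highest, which favours its calls against that group. The MHC class I gene H2-K1, whose product Pirb binds, fell by 1.10. Between RANKL + UD and RANKL 5 were lower and 0 higher, with Itgb3 at -1.07, Itgav at -0.78 and Cd47, the ligand of Sirpa, at -0.43. With library totals alone or with either limma setting, 3 were lower and 0 higher. Cd47 was at 31.5 ± 0.176 FPKM (SD, n = 3) in control, 27.7 ± 0.849 in RANKL and 21.8 ± 0.345 in RANKL + UD, and its log2 fold change under RANKL was -0.10 (adjusted p = 0.0771, edgeR). Against control RANKL + UD had 2 higher and 5 lower, with Itgb3 at 2.13, Itgav at 1.49 and H2-K1 at -1.03. The medians were -0.28, -0.21 and -0.53. Among all tested genes 30.2%, 20.2% and 27.3% were called lower in the 3 comparisons, and 27.3%, 18.6% and 26.7% higher.

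Of 22 other Fc, SIRP and LILR family genes listed, 17 were in the table by these symbols and 4 passed the filter. Under RANKL Lilrb4b and Trim21, the cytosolic antibody receptor, were lower and Fcrl1 was higher. Fcrl1, a receptor-like gene known from B cells, had a log2 fold change of 1.27 under RANKL and -0.78 between RANKL + UD and RANKL. Fcgrt, the neonatal Fc receptor, was at -0.06 under RANKL (adjusted p = 0.668, edgeR) and at -0.57 between RANKL + UD and RANKL (adjusted p = 0.000613, edgeR). In that comparison 3 of the 4 were lower and 0 higher, and against control Lilrb4b, Trim21 with -0.96 and Fcgrt with -0.64 were lower and Fcrl1 was higher. The medians were -0.49, -0.68 and -0.80. Among all tested genes 30.2%, 20.2% and 27.3% were called lower in the 3 comparisons, and 27.3%, 18.6% and 26.7% higher.

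Of 29 other myeloid paired receptor genes, 28 were in the table and 22 passed the filter. Under RANKL 15 were lower and 6 higher, among them Oscar, the osteoclast receptor that pairs with Fcer1g, with 0 to 7 counts per control library and 780 to 798 per RANKL library. The count lower was 14 with RLE size factors, a filter by counts, DESeq2 or only the 6 libraries. It was also 14 without control replicate 1 or 2 or RANKL replicate 2 or 3. Siglec1 and Cd33, which bind sialic acid, fell by 4.22 and 3.29 on the log2 scale under RANKL. Siglec1 averaged 6.77 FPKM in control, 0.342 in RANKL and 0.355 in RANKL + UD. It thus passed the filter only through the control libraries, where it was highest, which favours its calls against that group. Cd300lf and Clec4a1, counted among the 15 and named after their values were seen, also averaged above 1 FPKM in control alone (2.29 and 2.45). Between RANKL + UD and RANKL 11 were lower and 1 higher, with Oscar at -1.53, the beta-glucan receptor Clec7a at -1.36 and Cd200r1 at -1.09. The 1 that rose was Trem3, at 0.89 (adjusted p = 0.0483, edgeR), which is named here after its value was seen, and DESeq2 called 0 higher and 10 lower. None was higher either with RLE size factors, with other filters, or without control replicate 1, any 1 of the RANKL libraries, or RANKL + UD replicate 1 or 3. In the other direction, 3 were higher with library totals alone. With either limma setting, only the 6 libraries or without control replicate 3, the count higher was 2. Against control 15 were lower and 6 higher in RANKL + UD, led by Oscar (215 to 310 counts per RANKL + UD library), Siglec1 with -4.26 and Cd33 with -3.64. With either limma setting, or without control replicate 2 or RANKL + UD replicate 3, the count higher was 5. The medians were -0.72, -0.32 and -1.13. Among all tested genes 30.2%, 20.2% and 27.3% were called lower in the 3 comparisons, and 27.3%, 18.6% and 26.7% higher.

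**Figure D4:**
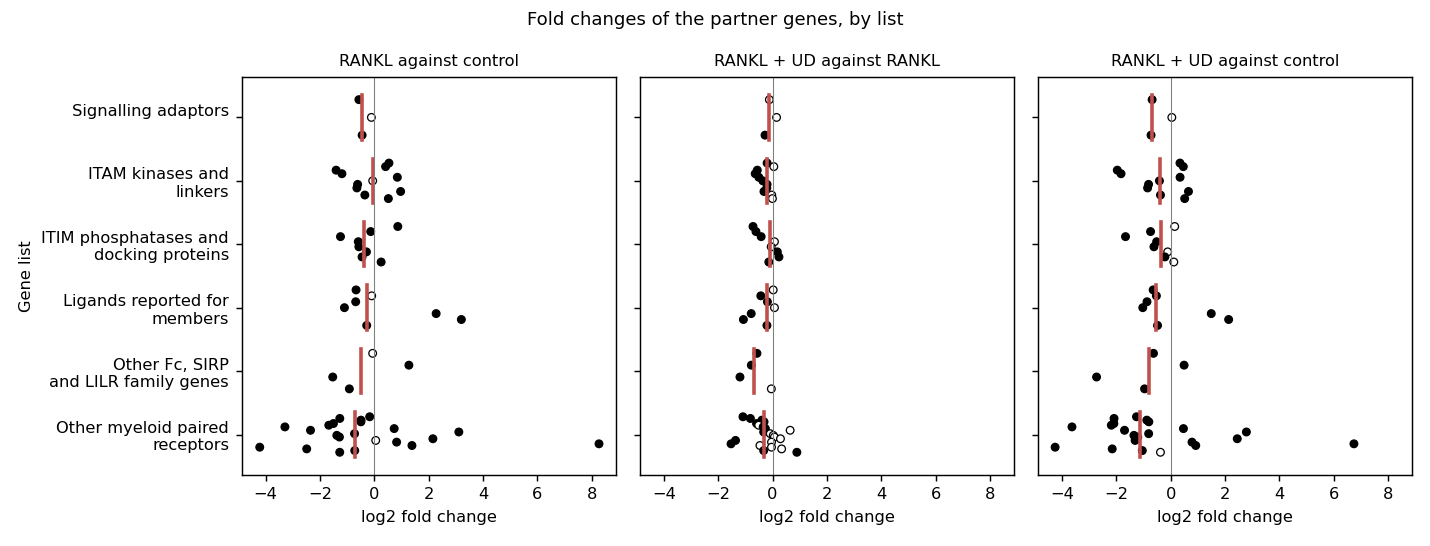
Log2 fold change (edgeR) of each tested gene of the 6 lists in the 3 comparisons; filled points have an adjusted p under 0.05, open points do not, and the red bars are list medians. Most points lie left of 0 between RANKL + UD and RANKL, where 8 of 11 ITAM kinases and linkers and 11 of 22 other myeloid paired receptors are called lower. In that comparison 20.2% of all tested genes are called lower.

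The genes whose log2 CPM followed each receptor most closely over the 9 libraries were taken from 8717 protein-coding genes with a mean log2 CPM of at least 3. The 9 libraries fall into 3 groups, so these correlations mostly describe a shared order of the group means and are given without a test. For Fcgr1 they were Arrb2, Ctsc and Necap2 (Pearson r of 0.999, 0.999 and 0.998). For Fcgr3 they were Smpdl3a, Anxa6 and Tpd52 (0.998, 0.998 and 0.997), and for Fcgr2b Plaur, Adssl1 and Ptprs (0.995, 0.994 and 0.991). For Lilrb4a they were Nek7, Sppl2a and Amotl1 (0.998, 0.997 and 0.996). For Sirpa they were Irf5, Rhoc and H2-T23 (0.988, 0.982 and 0.980), and for Pirb Il7r, Arhgap25 and Cd53 (0.993, 0.991 and 0.990). Il7r, for example, had a mean FPKM of 4.82, 4.39 and 0.824 in the 3 groups, a fall with UD only as seen for Pirb. Fcgr4 had Brd1, Cyp4f16 and Zfp946 with lower values of 0.915, 0.886 and 0.882.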

How the data were processed

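RNA of RAW264.7 cells was sequenced in 9 libraries, 3 per group, as poly(A)-selected, strand-specific libraries read in 150-base pairs according to the labels. The authors deposited raw counts per gene and FPKM, which the authors made from those counts, the exonic length and the library total. Recomputed FPKM matched the deposited values for 100% of genes within 0.00501. The aligner and the counting tool are not given in the sources used here. Groups were taken from the sample titles, and all 18 value columns were matched by name.

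Counts were tested with edgeR 4.0.16 (quasi-likelihood test, TMM scaling, all 9 libraries in one fit) in R 4.3.3 for 11995 genes that reached an FPKM of 1 in 3 or more libraries, with Benjamini-Hochberg adjustment and a threshold of 0.05. The SE is the log2 fold change divided by the root of the F statistic, and the 95% intervals use its degrees of freedom. Ratios were compared by exact permutation tests. The edgeR, DESeq2 and limma fits were tested on simulated data. DESeq2 1.42.0, limma 3.58.1 on log2(FPKM + 1) and log2(FPKM + 0.1), other scalings and filters, a replicate block and leaving out each library were alternatives. Named genes are the 10 receptors, per list and comparison the 3 called genes with the largest absolute log2 fold change, and per receptor the 3 genes with the highest correlation. One gene that this rule names is not reported here. The receptors and the lists were chosen with earlier results of these data known. Precision is limited by 3 libraries per group, and libraries held 15951800 to 19746862 counts.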

Additional observations from a re-analysis of the deposited data

How the results depend on the processing

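The 27 member fold changes (9 genes, 3 comparisons) were recomputed 474 times in all, of which 451 kept the direction and the side of the threshold. All 9 that turned direction were of values close to 0 that no setting called. For Fcgr4 between RANKL + UD and RANKL the value was -0.0078 with RLE size factors and -0.0086 with DESeq2, and for Sirpa under RANKL it was 0.0020 with only the 6 libraries of the comparison. Leaving out single libraries gave -0.16 to 0.10 for Fcgr4 between RANKL + UD and RANKL, -0.047 to 0.027 for Sirpa under RANKL and -0.11 to 0.022 for Pirb under RANKL. The log2 ratio of activating to inhibitory Fc gamma receptors between RANKL + UD and RANKL turned to -0.44 with Fcgr3 alone in the numerator. Fcgr4 under RANKL passed with limma too (adjusted p = 0.0330 and 0.0337), and Sirpb1a under RANKL with library totals (adjusted p = 0.0308), while Sirpb1c between RANKL + UD and RANKL lost its call with limma (adjusted p = 0.108 and 0.101) and with only the 6 libraries (adjusted p = 0.0524). The cause was not tested. Leaving out each library, the log2 ratio differences ranged from -1.49 to -1.32, 0.36 to 0.54 and -1.01 to -0.89 for the Fc gamma receptors and from -0.87 to -0.60, -1.96 to -1.50 and -2.66 to -2.20 for Sirpb1 to Sirpa, and 4, 5 and 6 to 7 receptors were called lower.

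Scaling mattered for all genes. RANKL against control gave 3278 higher and 3628 lower genes, but 2585 and 4415 with library totals and 2500 and 4277 with limma on log2(FPKM + 1), with a median log2 fold change of all genes of -0.11 with library totals. RANKL + UD against RANKL gave 2233 higher and 2418 lower, but 3348 and 1709 with library totals, 2986 and 1556 with limma on log2(FPKM + 1), and 2982 and 1536 on log2(FPKM + 0.1). Without the filter 7 of 10 receptors were lower in RANKL + UD against RANKL, and 8 against control. That fit called 9.18% and 13.4% of its 26736 genes lower in these comparisons. The receptors added were Sirpb1a and Sirpb1c, whose calls rest on a spread pooled over all genes.

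The replicate numbers do not mark a shared culture in the labels, so same-numbered libraries were not taken as pairs. Deviations of same-numbered libraries correlated at -0.0194 to 0.0984 over 9 pairs. Those of differently numbered libraries correlated at -0.102 to 0.0464 over 18 pairs. The ranges overlap, but the highest values were in same-numbered pairs, so these correlations do not settle whether the libraries were paired. With the number as a replicate block the calls of the receptors were 4, 5 and 6 lower as before, 0 of 27 member results changed call, and 3346 higher and 3694 lower genes were called under RANKL, 2347 and 2518 between RANKL + UD and RANKL, and 3268 and 3334 against control.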
